A study of Mus musculus with 30 samples.

Results

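The cytosolic ribosomal protein genes encode the proteins of the large (Rpl) and small (Rps) subunits of the ribosome. They were chosen by symbol alone, as every gene whose symbol is Rpl or Rps followed by a number and at most the letters a, x, y or l and further digits, together with Rplp0, Rplp1, Rplp2 and Rpsa. Pseudogene symbols and the Rps6k kinases were left out. The pattern found 85 genes among the 24883 gene rows of the expression table, of which 52 belonged to the large and 33 to the small subunit, each on 1 row. It misses ribosomal proteins with other names, such as Fau, which is made as a fusion with a ubiquitin-like protein, and Rack1.

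RNA was sequenced from dorsal hippocampus of wild-type adult male C57BL/6J mice, 6 libraries in each of 5 conditions. VEH-HC mice received the transfection reagent jetPEI without DNA and were handled in the home cage. VEH-T10 and VEH-T3 mice received the same vehicle, and Y397F-T10 and Y397D-T3 mice a jetPEI-complexed plasmid carrying HA-tagged mouse CREST under a mini-CaMK2 promoter, with tyrosine 397 changed to phenylalanine (phospho-null) or aspartate (phospho-mimetic). T10 stands for 10 min of object location memory training, which forms long-term memory in untreated mice, and T3 for 3 min, which does not, with tissue taken 1 h later. CREST, the product of Ss18l1, is a calcium-responsive coactivator of neuronal chromatin remodelling complexes that binds the acetyltransferase CBP. The vehicle held no DNA, so the delivery of a plasmid and the mutant it carried cannot be told apart. Ss18l1 itself ran from 10.4 to 13.3 FPKM in VEH-T10 and from 11.4 to 14.0 in Y397F-T10, and from 11.8 to 14.7 in VEH-T3 and 12.9 to 14.0 in Y397D-T3, so plasmid and vehicle libraries overlapped. FPKM is a count of fragments divided by transcript length and library size.

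A ribosome needs 1 copy of nearly every ribosomal protein, and the mRNAs of these proteins are among the most abundant in any cell. They typically begin with a C followed by an unbroken run of pyrimidines, the terminal oligopyrimidine (TOP) motif. Through it the kinase mTOR controls their translation, which can change without a change in mRNA level. In neurons, part of this mRNA lies in dendrites and axons, and protein synthesis is needed for memory to last. The table measures mRNA level and not translation.

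Start sites are shown for genes whose values carry the results below, to show where a pyrimidine run lies near an annotated start. Starts were annotated and not measured here, so a window without a run does not show that the mRNA lacks the TOP motif. Each line gives the 30 bases centred on an annotated transcription start of RefSeq on GRCm38.p6, 5′ to 3′ on the coding strand, and capitals mark the pyrimidine run nearest to the start, read from its first C that lies within 10 bases of the start, where that C is followed by at least 4 pyrimidines.
Rps6, chr4:86857353-86857382, minus strand: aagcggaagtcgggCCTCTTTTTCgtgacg
Rpl38, chr11:114668565-114668594, plus strand: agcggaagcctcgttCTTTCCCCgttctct
Rplp2, chr7:141447636-141447665, plus strand: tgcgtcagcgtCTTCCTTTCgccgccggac
Rps27, chr3:90213634-90213663, minus strand: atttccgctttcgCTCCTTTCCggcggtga
Rps15a, chr7:118116133-118116162, minus strand: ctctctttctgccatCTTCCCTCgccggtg
Rpl22l1, chr3:28805493-28805522, plus strand: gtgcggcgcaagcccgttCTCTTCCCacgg
Rplp0, chr5:115559452-115559481, plus strand: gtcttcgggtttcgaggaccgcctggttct
Rpl26, chr11:68901551-68901580, plus strand: ctcgcggcaacttacagaaccggaagtcgc
In the windows of Rpl38 and Rps15a the marked run begins exactly at the annotated start, in those of Rps6, Rplp2 and Rps27 it begins upstream and spans the start, in that of Rpl22l1 it begins downstream, and the windows of Rplp0 and Rpl26 hold none. RefSeq promoter entries matched 64 of the 85 genes. A run of this kind lay within 10 bases of an annotated start in 39 of the 64 genes (60.9%), against 35.0% of the 17191 genes of the table with an entry. A C at the start itself was followed by at least 4 pyrimidines in 13 of the 64 (20.3%), against 2.82% of all. In the 300 bases from 250 before to 50 after the start, and on both strands, CCGGAAG (an ETS family motif) was found in 26 of the 64 genes (40.6%) and in 12.8% of all. AAGATGGC (a YY1 motif) was found in 9.38% against 3.64%, GGGCGG (a GC box) in 62.5% against 49.7%, and TATAAA in 10.9% against 14.2%. TGACGTCA, the full CRE motif of CREB, which recruits CBP, was found in 5 of the 64 (7.81%) and in 2.62% of all.

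Most of these genes were expressed at very high levels. The mean over the 30 libraries was above 500 FPKM for 17 genes, above 100 for 73, between 1 and 100 for 9 and below 1 for 3. The median was 313 FPKM over the 82 genes with a mean of at least 1, against 9.86 over all 13184 rows that passed the same limit, and 21 of the 100 highest rows of the table were ribosomal protein genes. The median was 289 FPKM for the 49 large subunit genes and 357 for the 33 small subunit genes. Mean levels spanned 255-fold among the 82 genes, down to 5.37 FPKM on the row of Rps27, which has an abundant copy, with Rpl7l1 next at 16.7. No neighbours in the order of levels had ranges over the libraries that failed to overlap. Their transcripts are short, with a median length of 713 bases against 2180 for all tested rows.

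**Figure D1:**
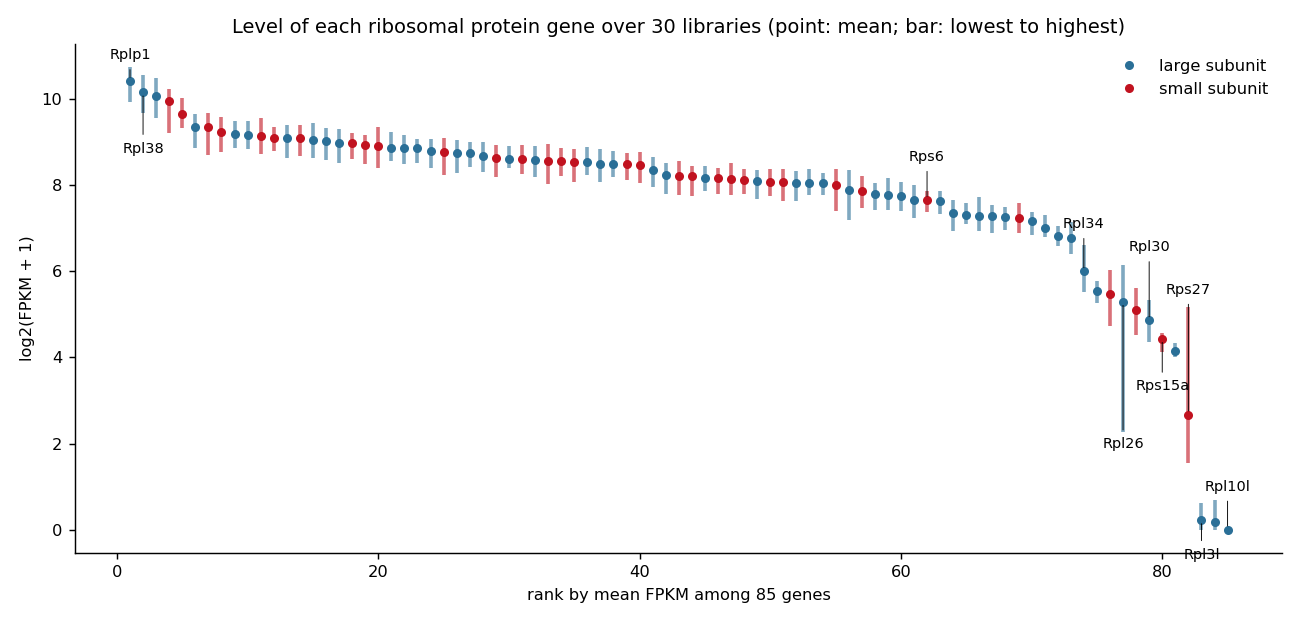
Level of each of the 85 genes, as log2(FPKM + 1) against its rank by mean FPKM, with points for the mean and bars from the lowest to the highest of the 30 libraries, coloured by subunit. Most genes form a slowly falling plateau above 100 FPKM, Rps27 and Rpl26 have the longest bars among the low genes, and Rpl3l, Rpl39l and Rpl10l lie at the floor.

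The 3 highest genes were Rplp1, at 1370 ± 181 FPKM (SD, n = 30), Rpl38, at 1139 ± 190, and Rpl41, at 1081 ± 167. Rplp1 encodes an acidic protein of the stalk, the arm of the large subunit that recruits elongation factors. Rpl38 is a protein of the large subunit known for a role in the translation of Hox mRNAs, and Rpl41 is the shortest ribosomal protein. In FPKM, Rplp1 ran from 1302 to 1712 (median 1365) in VEH-HC, from 1237 to 1577 (median 1455) in VEH-T10, from 1069 to 1370 (median 1292) in Y397F-T10, from 1037 to 1701 (median 1365) in VEH-T3, and from 979 to 1608 (median 1465) in Y397D-T3. Rpl41 ran from 868 to 1254 (median 1066) in VEH-HC, from 906 to 1228 (median 1091) in VEH-T10, from 759 to 1246 (median 1004) in Y397F-T10, from 849 to 1437 (median 1143) in VEH-T3, and from 807 to 1376 (median 1102) in Y397D-T3. Both genes overlapped between all conditions, and Y397F-T10 had the lowest median of each.

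The rest of the stalk and the genes with roles beyond the ribosome lay lower. Rplp2, the partner of Rplp1, averaged 649 FPKM and Rplp0, which anchors both to the ribosome, 236. Rpsa, a small subunit protein also known as the laminin receptor precursor, averaged 231. Rps6, the substrate of the S6 kinases and a common readout of mTOR activity, averaged 201, and Rps27a, which is made as a fusion with ubiquitin, 269. In FPKM, Rps6 ran from 187 to 234 (median 206) in VEH-HC, from 170 to 232 (median 206) in VEH-T10, from 166 to 217 (median 204) in Y397F-T10, from 166 to 223 (median 205) in VEH-T3, and from 168 to 204 (median 189) in Y397D-T3. The 5 ranges overlapped, and the Y397D-T3 median was the lowest.

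The paralogues of each pair had unequal mean levels, and the tissue-restricted forms were at or near 0. Rpl10l, known from testis, was listed at 0 in all 30 libraries while Rpl10 averaged 409 FPKM. Rpl39l, also a testis form, averaged 0.134 FPKM and was listed at 0 in 13 libraries, all 6 of VEH-T3 among them, against 215 for Rpl39. Rpl3l, the muscle form, averaged 0.166 FPKM and was at 0 in 3 libraries, against 392 for Rpl3. The other pairs were all expressed. Rpl36a averaged 218 FPKM and Rpl36al 155, with overlapping ranges, Rpl7 301 and Rpl7l1 16.7, and Rps4x 296 and Rps4l 33.1. Rps4l is annotated as a transcribed processed pseudogene, although its symbol does not mark it as one, and the other 84 genes are annotated as protein-coding. Rpl22l1, at 155 FPKM, was higher than Rpl22, at 45.4. Rps27l, a target of p53, averaged 43.2 FPKM against 5.37 on the Rps27 row, which has an abundant copy described next.

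Processed copies of ribosomal protein mRNAs are scattered over the genome, and a read that matches several copies cannot be assigned to 1 gene. Of the genes described in this and the next paragraphs, Rpl34, Rpl30, Rps19 and Rps29 were singled out after their values were seen. Rps27rt (chr9:114982366-114982739 in mm10, minus strand), an intronless protein-coding gene, shared 91.6% of its 31-base words with Rps27. The coding sequences of the pair were identical over all 252 bases. Rps27rt averaged 1066 FPKM, and the Rps27 row took a median of 0.401% of the sum of the pair. Gm15772 (chr5:3236431-3236868, plus strand), an annotated processed pseudogene of Rpl26, averaged 498 FPKM against 38.2 on the Rpl26 row. Rpl34-ps1 (chr6:71124610-71124963) averaged 521 against 63.0 for Rpl34, and Gm12191 (chr11:49678710-49679057) 395 against 28.1 for Rpl30. The coding sequences were identical at 433 of 435 bases for Rpl26 and Gm15772, 349 of 351 for Rpl34 and 344 of 345 for Rpl30. The first difference in each of these pairs is shown in capitals within 30 bases of coding sequence on GRCm38, to show how little a read has to tell the copies apart.
Rpl26, coding bases 162 to 191: agttcaggttgttcgCggacactacaaagg
Gm15772, the same bases: agttcaggttgttcgTggacactacaaagg
Rpl34, coding bases 117 to 146: gaaagcacctaaatcTgcatgtggcgtgtg
Rpl34-ps1, the same bases: gaaagcacctaaatcCgcatgtggcgtgtg
Rpl30, coding bases 81 to 110: cgtgctgggctacaaGcagactctgaagat
Gm12191, the same bases: cgtgctgggctacaaAcagactctgaagat
The levels of Rps27, Rpl26, Rpl34 and Rpl30 on their own rows are therefore uncertain. The sum of each pair averaged 1071, 536, 584 and 424 FPKM, within the plateau of the other ribosomal protein genes.

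**Figure D2:**
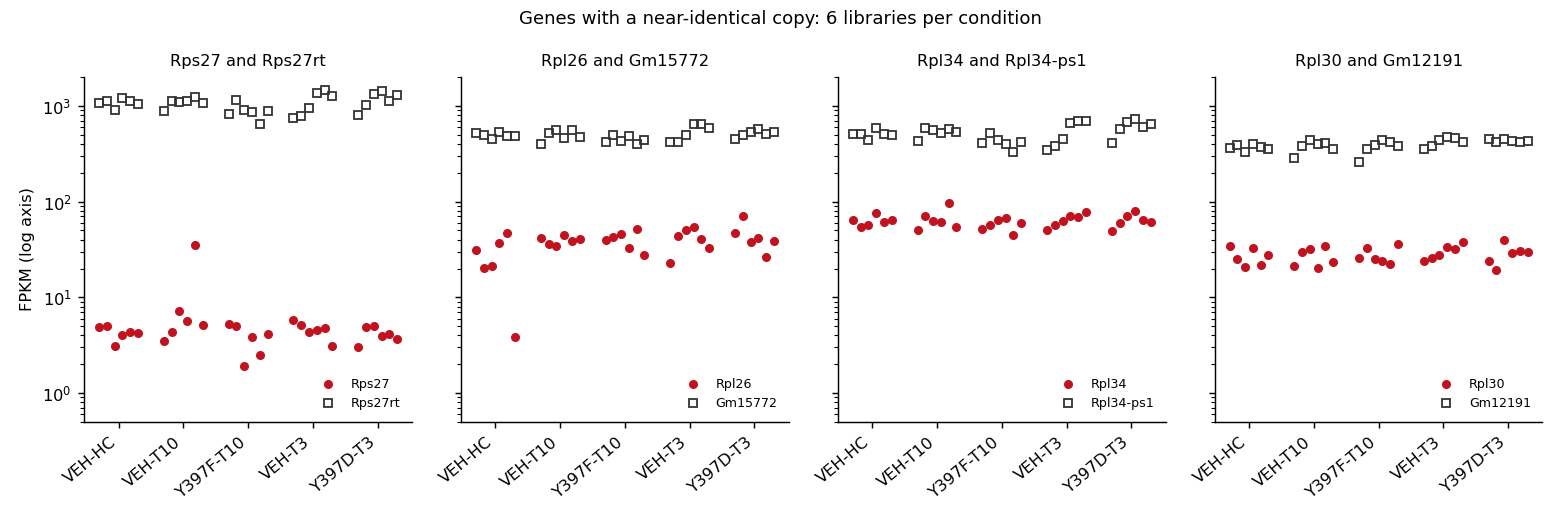
FPKM, on a log axis, of 4 ribosomal protein genes (filled circles) and their near-identical copies (open squares) in each of the 30 libraries, grouped by condition. The copy lies above the gene in every library, and the Rps27 point at 34.8 FPKM in VEH-T10 and the Rpl26 point at 3.83 FPKM in VEH-HC stand apart.

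The spread of 3 of these 4 rows fell when the copies were added. The within-condition SD on the log2 scale was 0.62 for Rpl26, the largest of the family, and 0.17 for the sum with Gm15772. It was 0.55 for Rps27 and 0.28 for the sum with Rps27rt, and 0.29 for Rpl30 and 0.17 for the sum, whereas Rpl34 went from 0.24 to 0.27. The copies alone had SDs of 0.18 (Gm15772), 0.28 (Rps27rt), 0.18 (Gm12191) and 0.28 (Rpl34-ps1). They made up most of each sum, so the SD of a sum is largely that of the copy. Among the single rows, Rps27l came after Rpl26 and Rps27, with an SD of 0.32. The smallest SDs were those of Rps15a (0.09), Rpl7l1 (0.11) and Rpl22 (0.11). Rps15a, a core small subunit protein, ran from 16.3 to 22.6 FPKM over all 30 libraries.

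The libraries differed in their total ribosomal protein mRNA by more than the conditions did. The sum of the 85 genes ran from 23506 to 34573 FPKM, a 1.47-fold range. By condition it ran from 26398 to 34466 (median 29563) in VEH-HC, from 24773 to 33536 (median 30224) in VEH-T10, from 23506 to 29785 (median 27712) in Y397F-T10, from 24036 to 34573 (median 30281) in VEH-T3, and from 26063 to 33555 (median 29992) in Y397D-T3. The 5 ranges overlapped, and the library numbered 1 was the lowest in each of the 4 trained conditions. In VEH-HC the lowest was replicate 3 and the highest replicate 4. The mean was lowest in Y397F-T10, at 27373 ± 2292 FPKM (SD, n = 6), and lay between 29649 ± 2756 (VEH-HC) and 30175 ± 3311 (VEH-T10) in the other conditions. The genes took 6.26% to 8.14% of the summed FPKM of a library. In bulk tissue, fewer cells of a type and less RNA per cell cannot be told apart.

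**Figure D3:**
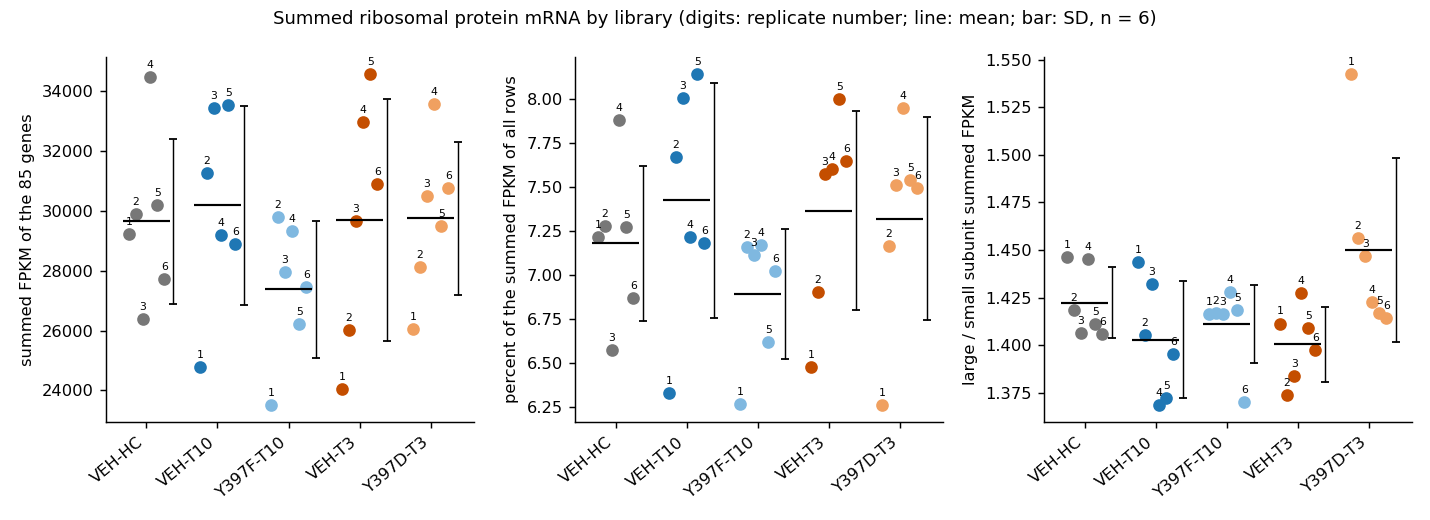
Summed FPKM of the 85 genes, its percent of the summed FPKM of all rows, and the ratio of large to small subunit sums, with 1 point per library labelled by replicate number, the mean as a line and the SD (n = 6) as a bar. The libraries numbered 1 lie lowest in the first and second panels in the 4 trained conditions, and Y397D-T3 replicate 1 lies highest in the ratio panel, at 1.54.

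Other properties of the libraries varied too. The number of fragments behind each value is unknown, and steps between low values put the relative depth of the libraries between 0.816 and 1.25 of the median library. The rank correlation of a library's deviations with transcript length, over all rows, ran from -0.434 in VEH-HC replicate 4, the library with the highest sum of VEH-HC, to 0.297. The summed level of 8 choroid plexus markers, Ttr among them, ran from 10.6 to 12837 FPKM, with a median of 3165 for VEH-HC and 1963 for VEH-T3, and of 102, 56.0 and 125 for VEH-T10, Y397F-T10 and Y397D-T3. All 8 CA1 pyramidal markers were present in every library, with sums from 1025 to 1353 FPKM. The part of depth, length bias and choroid plexus in the results below was not tested, except that values are given with the trend on length and GC content removed and without the libraries numbered 1.

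The genes of both subunits deviated together from library to library. The deviations of log2(FPKM + 1) from the condition means had a median Pearson correlation of 0.745 over the 3321 pairs of the 82 genes, against 0.031 over pairs of all tested rows. Of the pairs, 99.2% were above 0. Without the libraries numbered 1 the median was 0.713 over 25 libraries. These points share the same libraries, depth and transcript length, and the values are a description across genes, which are not independent replicates. The first principal component held 57.6% of the variance, and 63 genes correlated above 0.8 with the median of the others. The 3 below 0.5 were Rps4l (0.124), Rpl26 (0.204) and Rps27 (0.237), and the latter pair are rows with an abundant copy. The ratio of large to small subunit sums stayed between 1.37 and 1.54.

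**Figure D4:**
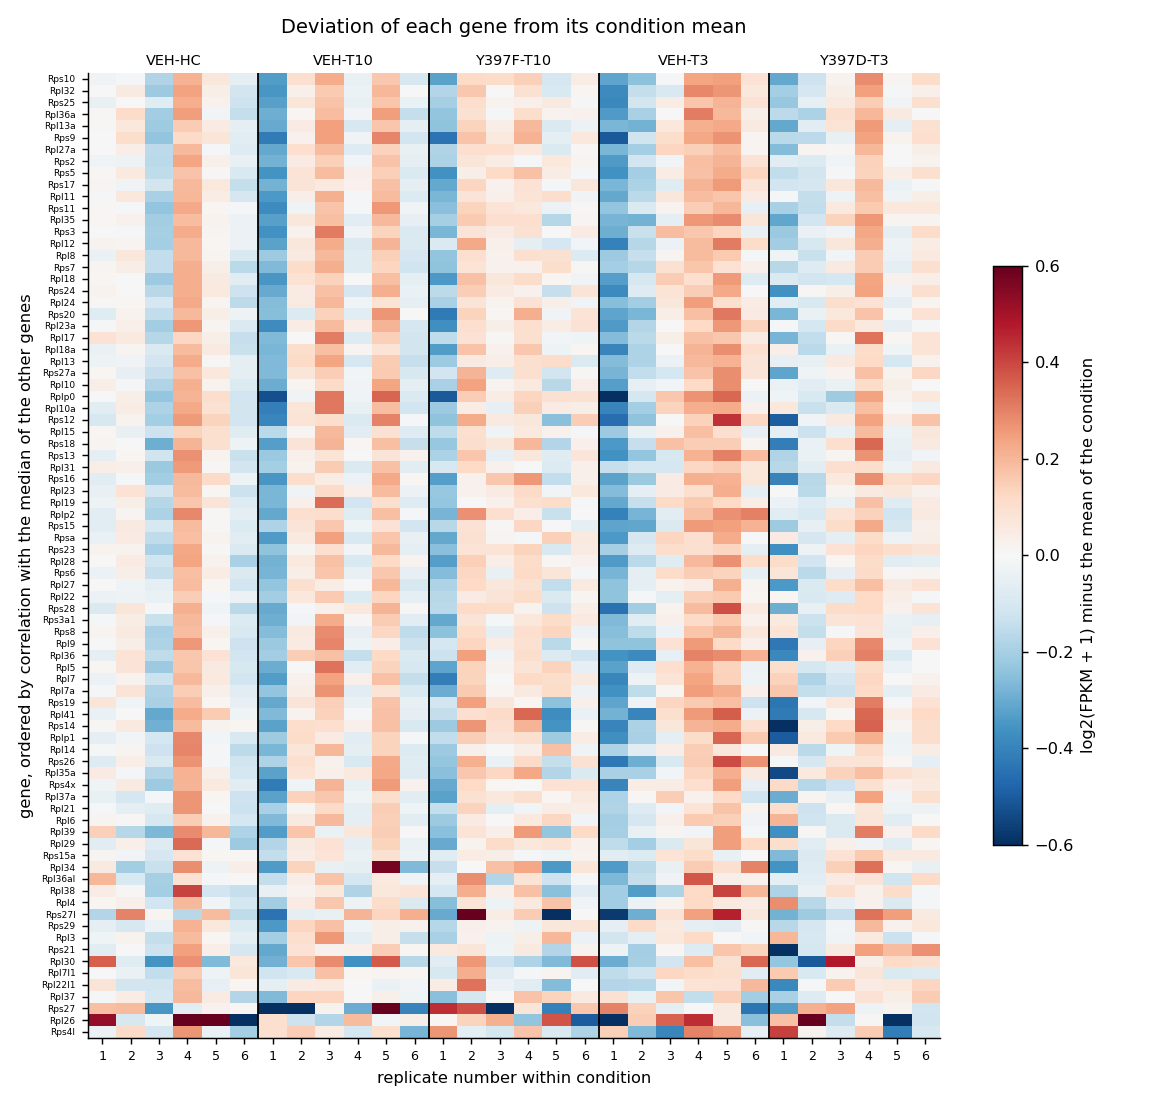
Deviation of log2(FPKM + 1) of 82 genes (rows, ordered by correlation with the median of the others) from the mean of their condition, in each library (columns, by condition and replicate number), from blue (below) to red (above), with the scale ending at 0.6 on either side. Whole columns share 1 colour, with the libraries numbered 1 of the trained conditions blue and VEH-HC replicate 4 red, while Rps27, Rpl26 and Rps4l at the bottom follow no column.

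Vehicle mice after training were compared with the home cage mice, and no ribosomal protein gene passed the test. By the study's methods, home cage mice only received handling, while trained mice were also habituated to the chamber. Habituation and training therefore cannot be told apart here. In VEH-T10 against VEH-HC, limma called 0 of 82 genes higher and 0 lower at an adjusted p under 0.05, where 0.319% of all tested rows were called higher and 0.501% lower. In VEH-T3 against VEH-HC it also called 0 of 82 in either direction, where 2.23% of all rows were called higher and 2.94% lower. Without adjustment, at a p under 0.05, the counts were 2 higher and 0 lower after 10 min, where 4.57% of all rows were higher and 10.3% lower, and 1 higher and 1 lower after 3 min, where 7.79% and 13.8% of all rows were. The median log2 fold change of the 82 genes was 0.02 after 10 min, with 61 above 0, and -0.01 after 3 min, with 34 above 0, against -0.03 and -0.04 over all tested rows. Without the libraries numbered 1 these medians were 0.08 and 0.04, with 5 and 21 of the 82 genes below 0. Over all tested rows they were then -0.02 and -0.01. With the trend on length and GC content removed, 5 genes lay below 0 after 10 min (median 0.05) and 23 after 3 min (0.03). With each library centred on its median, 7 (0.05) and 34 (0.01) did. These signs are not independent observations, since the genes move together within a library. VEH-T10 against VEH-T3 gave 0 of 82 higher, where 0% of all rows were called, and 0 of 82 lower, where 0.0455% were called, and 1 gene higher and 0 lower passed the unadjusted limit, as did 3.65% and 4.51% of all rows. The median log2 difference there was 0.04 with 57 genes above 0.

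The precision of single fold changes is given here without adjustment over all rows. Calls were adjusted, so 0 calls do not show that moderate changes would have been found. The standard error of a log2 fold change ran from 0.0545 to 0.339 with a median of 0.0955, and the median half-width of a 95% confidence interval was 0.196. The interval lay within 0.5 log2 units of 0 for 78 to 80 of the 82 genes in each of the 7 comparisons.

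The largest single values after training were those of the rows with copies. In FPKM, Rpl26 ran from 3.83 to 46.6 (median 26.4) in VEH-HC, from 34.8 to 45.0 (median 39.7) in VEH-T10, from 27.4 to 51.2 (median 41.3) in Y397F-T10, from 23.1 to 53.9 (median 42.3) in VEH-T3, and from 26.4 to 70.2 (median 40.3) in Y397D-T3. The low end of VEH-HC was 1 library, and all ranges overlapped. Rpl26 encodes a large subunit protein known to bind the p53 mRNA. Its log2 fold change from VEH-HC was 0.84 ± 0.34 (SE) in VEH-T10, 0.84 in VEH-T3, 0.83 in Y397F-T10 and 0.93 in Y397D-T3, with limma adjusted p = 0.233, 0.142, 0.207 and 0.0912. Without VEH-HC replicate 6 these were 0.39, 0.39, 0.38 and 0.48, and with Gm15772 added to Rpl26 they were 0.04, 0.13, -0.11 and 0.11. The Rpl26 row held a median of 6.63% of that sum, so the summed values are mostly those of Gm15772. In FPKM, Rps27 ran from 3.12 to 4.97 (median 4.31) in VEH-HC and from 3.52 to 34.8 (median 5.37) in VEH-T10. The high value was VEH-T10 replicate 5 alone. The log2 fold change was 0.63 ± 0.30 (SE, limma adjusted p = 0.328), and 0.20 without that library.

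Whether the Y397F plasmid changed these mRNAs after threshold training was asked by comparing Y397F-T10 with VEH-T10. Nearly all of the genes lay slightly lower and none passed the test. Limma called 0 of 82 genes higher and 0 lower, as it did of all tested rows (0% in each direction). Unadjusted, at a p under 0.05, it gave 0 higher and 9 lower, where 1.94% of all rows were higher and 1.84% lower at that limit. The log2 fold change was below 0 for 80 of the 82 genes, 47 of 49 in the large and 33 of 33 in the small subunit, with a median of -0.12. Of all 13184 rows 53.9% were below 0, and their median was -0.01. Since the genes move together within a library, these 80 signs are not independent observations. Most markers of cell types and of thalamus also lay to one side in this comparison. Below 0 were 8 of 8 microglia markers (median log2 fold change -0.16), 7 of 8 astrocyte (-0.08) and 7 of 8 oligodendrocyte markers (-0.07). So were 6 of 8 endothelial (-0.07) and 6 of 8 CA1 pyramidal markers (-0.03). Above 0 were 8 of 8 choroid plexus (0.33) and 5 of 7 thalamus markers (0.06). No marker was called, and the summed microglia markers ran from 230.4 to 906 FPKM in VEH-T10 and from 229 to 646 in Y397F-T10. The part of these cell types in the lower ribosomal protein mRNA was not tested. Against VEH-HC, limma called 0 of 82 genes higher and 0 lower in Y397F-T10, where 0.47% of all rows were called higher and 0.66% lower, and 1 higher and 4 lower passed the unadjusted limit, as did 5.50% and 11.4% of all rows. The median there was -0.10 with 78 below 0, against -0.04 over all rows.

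**Figure D5:**
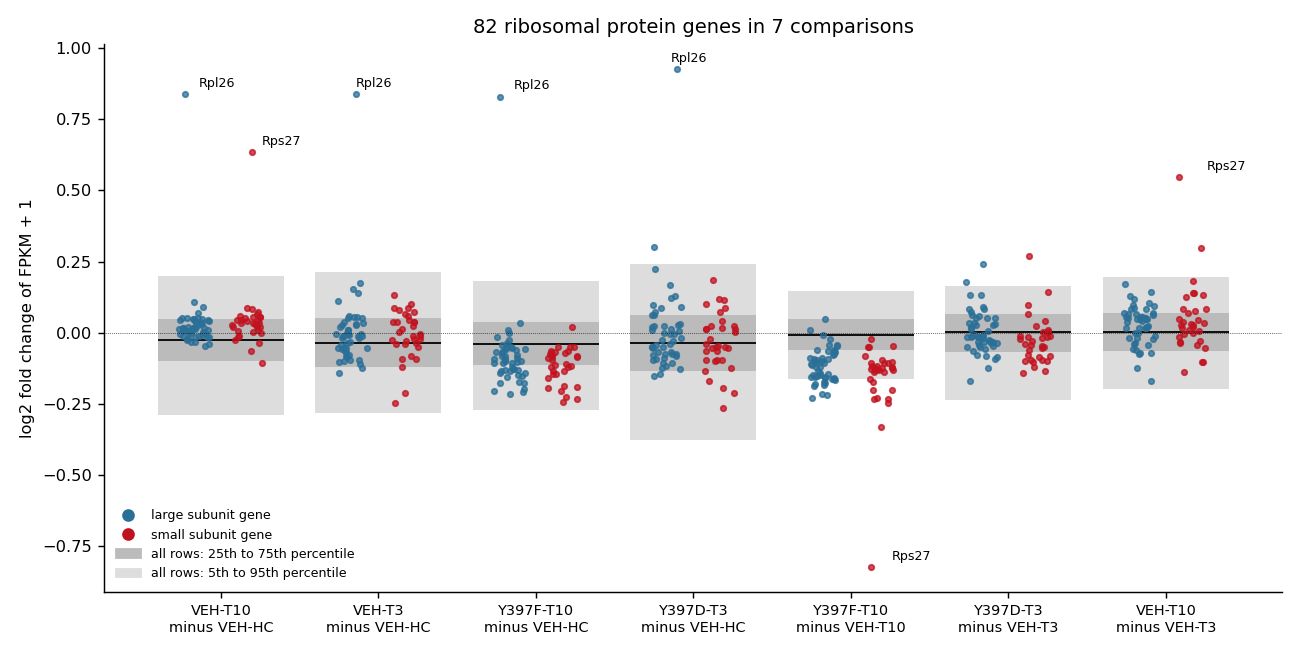
Log2 fold change of the 82 tested genes (points, coloured by subunit) in each of the 7 comparisons, over grey boxes for the 25th to 75th and 5th to 95th percentiles of all 13184 tested rows and a black line at their median. Nearly all points lie below 0 in Y397F-T10 minus VEH-T10, with a median of -0.12, while in the vehicle comparisons they lie on both sides, and only rows of Rpl26 and Rps27 lie beyond 0.5.

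The size of this shift rested on a few libraries. The median was -0.07 without Y397F-T10 replicate 1 and -0.18 without VEH-T10 replicate 1, the library with the lowest sum in each condition. Without all libraries numbered 1 it was -0.13, with 79 of 82 genes below 0. It was -0.08 with the trend on length and GC content removed (78 below 0), -0.09 with the libraries scaled to equal FPKM sums (77 below 0) and -0.13 with each library centred on its median (80 below 0). For Y397F-T10 against VEH-HC the median moved from -0.10 to -0.02 with the trend on length and GC content removed (59 below 0) and to -0.06 without the libraries numbered 1 (65 below 0).

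The 9 genes at the unadjusted limit in Y397F-T10 against VEH-T10 were Rps19, Rps27a, Rps24, Rps27, Rps21, Rps13, Rplp2, Rpl22l1 and Rpl12, of which 6 encode small subunit proteins. Rps19 is a small subunit protein best known as a gene of Diamond-Blackfan anaemia. In FPKM it ran from 241 to 313 (median 274) in VEH-HC, from 236 to 329 (median 296) in VEH-T10, from 196 to 276 (median 236) in Y397F-T10, from 190 to 269 (median 246) in VEH-T3, and from 169 to 283 (median 233) in Y397D-T3. All 6 Y397F-T10 libraries lay below the VEH-T10 median, although the ranges overlapped. The log2 fold change was -0.33 ± 0.10 (SE), and the limma adjusted p was 0.99994 over all rows.

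The stalk genes, Rpsa, Rps6 and the ubiquitin fusion gene Rps27a gave values of the same sign. In FPKM, Rplp2 ran from 574 to 799 (median 643) in VEH-HC, from 534 to 750 (median 683) in VEH-T10, from 465 to 681 (median 571) in Y397F-T10, from 475 to 778 (median 657) in VEH-T3, and from 656 to 784 (median 710) in Y397D-T3. Rps27a ran from 251 to 313 (median 273) in VEH-HC, from 235 to 314 (median 288) in VEH-T10, from 221 to 276 (median 234) in Y397F-T10, from 225 to 332 (median 271) in VEH-T3, and from 213 to 299 (median 269) in Y397D-T3. Every Y397F-T10 library lay below the VEH-T10 median for both genes, although the ranges overlapped. The log2 fold change was -0.23 ± 0.11 (SE) for Rplp2 and -0.23 ± 0.09 for Rps27a. It was -0.21 ± 0.11 for Rplp1, -0.18 ± 0.14 for Rplp0, -0.17 ± 0.09 for Rpsa and -0.05 ± 0.08 for Rps6. Rps27 gave -0.82, which was -0.39 without VEH-T10 replicate 5 and -0.33 with Rps27rt added.

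Whether the Y397D plasmid changed these mRNAs after subthreshold training was asked by comparing Y397D-T3 with VEH-T3. The genes lay on both sides of 0, with more of them below. Limma called 0 of 82 higher, where 0% of all rows were called, and 0 of 82 lower, where 0.00758% were called. At the unadjusted limit 2 were higher and 1 lower, as were 5.15% and 2.72% of all rows. The median log2 fold change was -0.02, with 30 genes above and 52 below 0, where 49.1% of all rows lay below 0. It was -0.04 without the libraries numbered 1 (63 below 0) and -0.03 with equal FPKM sums (57 below 0). With the trend on length and GC content removed it was -0.01 (45 below 0). With each library centred on its median it was 0.00 (41 below 0). Rps4l, the pseudogene-annotated paralogue of Rps4x, was one of the 2 higher genes, with a log2 fold change of 0.27 ± 0.12 (SE, limma adjusted p = 0.613). Rplp2 gave 0.18 ± 0.11, Rps6 -0.10 ± 0.08, Rplp1 0.05 ± 0.11 and Rplp0 -0.01 ± 0.14.

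Against the home cage, Y397D-T3 was the condition with the most rows called over the whole table, and still 0 of 82 ribosomal protein genes were called higher and 0 lower, where 3.91% of all rows were higher and 3.16% lower. At the unadjusted limit 3 were higher and 2 lower, as were 10.3% and 14.6% of all rows. The median log2 fold change was -0.03, the same as over all rows, and 0.00 without the libraries numbered 1. Rpl38, Rps29 and Rpl36al came closest to the threshold among genes without an abundant copy. In FPKM, Rpl38 ran from 954 to 1454 (median 1060) in VEH-HC, from 959 to 1150 (median 1120) in VEH-T10, from 815 to 1129 (median 959) in Y397F-T10, from 908 to 1516 (median 1126) in VEH-T3, and from 1190 to 1460 (median 1361) in Y397D-T3. All 6 Y397D-T3 libraries lay above 5 of the 6 VEH-HC libraries, and VEH-HC replicate 4 lay among them. The log2 fold change from VEH-HC was 0.30 ± 0.11 (SE, limma adjusted p = 0.0851), and without VEH-HC replicate 4 Rpl38 passed, with an adjusted p of 0.0302. Against VEH-T3 it was 0.24 ± 0.11 (adjusted p = 0.611).

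Rpl36al, an autosomal paralogue of the X-linked Rpl36a, ran in FPKM from 128 to 169 (median 147) in VEH-HC, from 140 to 174 (median 156) in VEH-T10, from 122 to 167 (median 135) in Y397F-T10, from 135 to 211 (median 163) in VEH-T3, and from 158 to 186 (median 172) in Y397D-T3. The 6 Y397D-T3 libraries lay above the VEH-HC median. Its log2 fold change from VEH-HC was 0.22 ± 0.09 (SE, limma adjusted p = 0.102). Rps29 lay lower there, by -0.19 (adjusted p = 0.0967), and Rps19 by -0.26 (adjusted p = 0.11). Rpl36al and Rpl38 passed the threshold under several other settings, which the closing paragraphs give.

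The effects of the plasmids were compared with each other by the difference between Y397D-T3 minus VEH-T3 and Y397F-T10 minus VEH-T10. For the ribosomal protein genes, limma called 0 of 82 higher, where 0% of all rows were called, and 0 of 82 lower, where 0.0303% were called. The smallest adjusted p was that of Rpl38, 0.43, with a log2 difference of 0.40. The plasmids were paired with different training, so the mutant and the training period cannot be told apart in this difference.

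Other genes of the translation machinery differed in how far they lay to one side. In Y397F-T10 against VEH-T10, 66 of 77 mitochondrial ribosomal protein genes lay below 0 with a median log2 fold change of -0.06, as did 19 of 21 other TOP mRNAs (-0.06), 6 of 9 elongation factors (-0.03) and 27 of 39 initiation factors (-0.02). Of 66 ribosome biogenesis genes 34 lay below 0 (median -0.00), and of 16 genes of the mTOR pathway 8 (0.01). None of these genes was called in that comparison. In Y397D-T3 against VEH-HC, 4 of the 219 listed genes passed higher (1.83%) and 6 lower (2.74%), both below the 3.91% and 3.16% of all rows. Gas5, a non-coding TOP transcript that hosts small nucleolar RNAs, rose by 0.33 ± 0.07 on the log2 scale (SE, limma adjusted p = 0.00692), while Hnrnpa1, an RNA-binding protein with a TOP mRNA, fell by 0.35 ± 0.07 (adjusted p = 0.00449). Eif3c, a subunit of initiation factor eIF3, fell by 0.16 ± 0.03 (adjusted p = 0.00657), and Rheb, the activator of mTOR, by 0.14 ± 0.04 (adjusted p = 0.0385). In VEH-T3 against VEH-HC 3 of the 219 passed higher (1.37%) and 4 lower (1.83%), Gas5 and Eif3c among them, where 2.23% and 2.94% of all rows did, and in VEH-T10 or Y397F-T10 against VEH-HC none did.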

How the data were processed

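RNA was extracted from dorsal hippocampus in 30 samples, 6 in each of 5 conditions named in the labels, and sequenced as paired-end total RNA libraries on NovaSeq and HiSeq instruments, with no record of which library ran on which. According to the submitters' processing notes and the study's methods, reads were aligned to mm10 with TopHat2 2.1.1, and the authors deposited FPKM per gene made with Cufflinks 2.2.1. The annotation release and the handling of reads with several positions are not given in the sources used here. The study took tissue from 6 mice per condition, and the labels do not tie a sample to an animal.

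Rows whose FPKM averaged 1 or more (13184 of 24883 rows, 82 of the 85 genes) were tested on log2(FPKM + 1) with limma 3.58.1 in R 4.3.3, with 1 coefficient per condition, a trend on mean expression and Benjamini-Hochberg adjustment over all rows of a comparison at a threshold of 0.05. The fold changes are on that scale and understate changes of low genes. The study's own test, Cyber-T, was not used. Levels, correlations and sequences were computed with Python 3.11.15. Of these steps only the limma fit was tested on simulated data, in which the noise of each row was independent. Shared 31-base words and coding sequences came from the GENCODE transcripts for GRCm38 and start sites from RefSeq. The replicate numbers come from the sample titles.

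The genes named with values were the 3 highest, those with a mean under 1 FPKM, the paralogue pairs, Rplp0, Rplp1, Rplp2, Rpsa, Rps6 and Rps27a, and the 3 largest and 3 smallest within-condition SDs. The family, the lists of other translation genes and the markers were chosen with earlier results of these data known. The settings varied were a pseudocount of 0.1, no filter, centred or equally summed libraries, removal of the trend on length and GC content, the 12 samples of a comparison alone, a replicate block, rows summed by symbol, unadjusted p and each library left out. Leaving out all libraries numbered 1, the block with length and GC or with 12 samples, and copy rows added to their gene were chosen after seeing the data.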

Additional observations from a re-analysis of the deposited data

Results flagged for a closer look

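In all, 130 groups of 6 values were checked for a library far from the others (23 genes and the sums, shares and ratios, in 5 conditions). By Dixon's test at the 95% level 13 held one, where chance gives about 1 in 20 for independent groups. These groups share libraries and hold genes that move together, so the 13 cannot be weighed against that rate. In VEH-HC, replicate 4 was the highest for Rplp1 (1712 FPKM, the others 1302 to 1387), Rpl38 (1454, the others 954 to 1131) and Rpl22 (49.6, the others 43.6 to 44.5). In Y397F-T10, replicate 1 was the lowest for Rpl36a (170 FPKM, the others 199 to 216), Rpl7 (222, the others 297 to 325), Rps4x (235, the others 290.2 to 315), Rplp0 (158, the others 232 to 249.6) and Rpsa (177, the others 219 to 243). Replicate 2 of that condition was the highest for Rpl7l1, at 19.2 FPKM with the others at 15.3 to 16.6. Rps27 in VEH-T10 replicate 5 was at 34.8 FPKM, with the others at 3.52 to 7.24. Rpl22l1 in Y397D-T3 replicate 1 was at 118 FPKM, with the others at 154 to 172. The ratio of large to small subunit sums was 1.54 in Y397D-T3 replicate 1, with the others at 1.41 to 1.46, and 1.37 in Y397F-T10 replicate 6, with the others at 1.42 to 1.43.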

How the results depend on the processing

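In Y397D-T3 against VEH-HC, the count of ribosomal protein genes called higher, 0 as reported, was 2 with centred libraries, with equal sums and with the 12 samples alone (Rpl36al and Rpl38), 4 with the length and GC trend removed (these, Rpl29 and Rps15), 3 with that and the replicate block, 1 without the libraries numbered 1 (Rpl36al), and 0 to 1 with each library left out in turn. The count lower was 1 (Rps29) with the replicate block and 12 samples. Counted by unadjusted p under 0.05, higher and lower, it was 2 and 0 in VEH-T10, 1 and 1 in VEH-T3, 1 and 4 in Y397F-T10 and 3 and 2 in Y397D-T3 against VEH-HC, 0 and 9 in Y397F-T10 against VEH-T10, 2 and 1 in Y397D-T3 against VEH-T3, and 1 and 0 in VEH-T10 against VEH-T3, a smaller share than of all rows in each direction except lower in Y397F-T10 against VEH-T10. Every other count of calls in the 7 comparisons stayed at 0. Rpl26 in Y397F-T10 against VEH-HC turned to -0.11 with its copy added. The cause of these changes was not tested. With the replicate block alone 0 genes were called. Same-numbered libraries correlated from -0.496 to 0.521, above 0.1 in 1 to 3 of 6 pairs of a comparison. Differently numbered libraries were not correlated for reference, so these values cannot decide whether the numbers pair the samples. Depth is unknown, Rps27, Rpl26, Rpl34 and Rpl30 depend on copies, and differences under about 0.196 log2 units lay within the interval of a typical gene.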

Other observations

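Ribosomal protein genes are known hosts of small nucleolar RNAs, which guide chemical changes of rRNA and are cut from introns. In the GENCODE annotation on GRCm38, 30 of the 85 genes (35.3%) held at least 1 annotated small nucleolar RNA gene, 58 in all, against 236 of 19837 protein-coding genes of the table (1.19%). Rpl4 held 5, the most. These are positions in the annotation, and levels of the small RNAs were not analysed here.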
